A study of Mus musculus with 12 samples.

Results

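Undifferentiated mouse embryonic stem (ES) cells lacking Smad2 and Smad3 were compared with wild-type ES cells across all genes. The comparison held 4 of the 12 RNA-seq libraries of the study, chosen by genotype and day in their titles: 2 of the Smad2/3 double knockout (S23DKO) and 2 of wild type (WT), both at day 0. All cells carried the label E14Tg2a.IV, a mouse ES cell line, and the labels list no agent for the day 0 cells, which they call undifferentiated. Smad4 knockout cells (S4KO) at day 0, with 2 libraries, and S23DKO and WT cells collected as embryoid bodies 4 days after LIF withdrawal, with 2 libraries each, are given beside the result. The labels state neither how the alleles were made nor whether a knockout is 1 clone or several, and they do not say that replicates were separate cultures. The p-values therefore measure only the spread between replicate libraries, which may be technical. That spread was estimated from all 12 libraries of the study, including those of S4KO at day 4. Of 32285 gene IDs, 18693 had enough counts to be tested, 13592 did not, and 9692 had no counts in any of the 4 libraries.

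Smad2 and Smad3 are the receptor-activated Smads of the Nodal, activin and TGF-beta branch. Once phosphorylated by type I receptors they pair with Smad4 and act on chromatin with partners such as Foxh1, whereas BMP receptors act through Smad1, Smad5 and Smad9, which also pair with Smad4. Nodal induces its own inhibitors, the Lefty proteins, and the pathway is best known in the early embryo for specifying mesendoderm and for the primed pluripotent state. BMP signals are known to raise the Id genes in ES cells and to favour extraembryonic and trophoblast fates.

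Levels are CPM (counts scaled to the TMM-adjusted library size), and fold changes are log2 values ± SE from edgeR's quasi-likelihood test, with n = 2 libraries in each group throughout. A gene is called at a Benjamini-Hochberg adjusted p below 0.05 over all 18693 genes. It is called throughout if it was also called in the same direction in each of the 4 fits that left out 1 of the 4 libraries. In S23DKO against WT 5799 genes were called (31.0%), 3114 higher (16.7%) and 2685 lower (14.4%), and 878 were called throughout (4.70%), 506 higher (2.71%) and 372 lower (1.99%). The CPM of the groups did not overlap for 12997 genes (69.5%). Counts within every gene list at day 0 stand beside the shares of 16.7% higher and 14.4% lower. Those at day 4 stand beside 7.21% higher and 8.0% lower. Without WT replicate 1 the count of called genes was 921, without WT replicate 2 it was 3105, and without S23DKO replicates 1 and 2 it was 5073 and 3021.

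The WT day 0 libraries stood apart from the rest. Cytosolic ribosomal protein genes took 14.8% and 10.8% of their counts and between 4.90% and 7.71% in the other 10 libraries, as the plot of library shares shows. Across 13832 genes the fold change in S23DKO correlated with exon length (Spearman rho 0.46, a description across genes, which share libraries), against 0.06 for S23DKO against S4KO and -0.02 at day 4. Genes called throughout as higher had a median exon length of 6662 bases, those called throughout as lower had 2614.5 bases, and all genes had 4274 bases. In S23DKO replicate 2 the mitochondrial genome took 6.74% of the counts, against 2.73% in replicate 1. Total counts in the 4 libraries ran from 46132635 to 51353258. Because of the WT libraries, values against S4KO day 0 (1034 genes called, 5.53%; 632 higher, 3.38%, and 402 lower, 2.15%) and at day 4 (2842 called, 15.2%; 1347 higher, 7.21%, and 1495 lower, 8.0%) stand beside the main ones. The S4KO comparison shares the S23DKO libraries with the main one, and the day 4 comparison shares none. All 3 comparisons come from 1 fit of the 12 libraries, so they share its estimate of the spread. Smad4 pairs with Smad2 and Smad3, so both knockouts may differ from WT alike. For a gene not called against S4KO, such a shared difference and the shift of the WT libraries cannot be told apart.

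**Figure D1:**
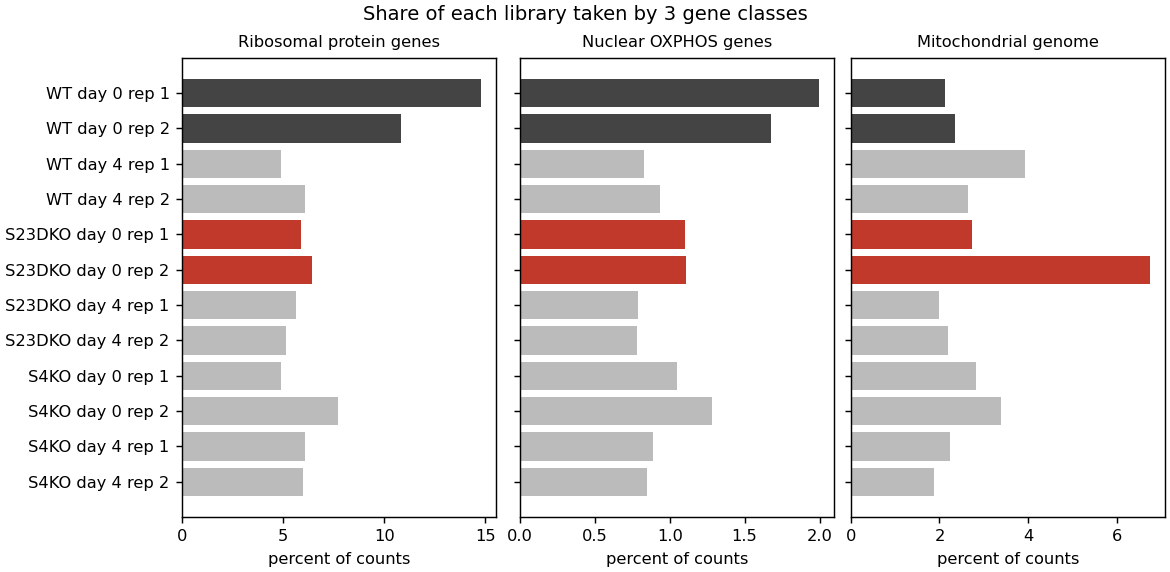
Percent of counts (horizontal axes, from 0) taken by ribosomal protein genes, nuclear oxidative phosphorylation (OXPHOS) genes and the mitochondrial genome, with 1 bar per library and the WT and S23DKO day 0 libraries in dark grey and red. The WT day 0 libraries had the highest ribosomal shares, 14.8% and 10.8%, and S23DKO day 0 replicate 2 had the highest mitochondrial share, 6.74%.

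Whole-gene counts of Smad2 and Smad3 did not fall in the double knockout. Smad2 (ENSMUSG00000024563) was at 29.5 and 38.8 CPM in WT and at 37.8 and 47.7 CPM in S23DKO, overlapping ranges. Smad3 (ENSMUSG00000032402) was at 9.68 and 11.5 CPM in WT and at 19.8 and 13.1 CPM in S23DKO. Neither was called (log2 fold changes 0.33 ± 0.25, adjusted p = 0.348, and 0.63 ± 0.26, adjusted p = 0.0831). In S4KO, the gene of its own label, Smad4, was at 100.3 and 79.6 CPM, higher than in WT (0.82 ± 0.20, adjusted p = 0.0187). Counts over a whole gene do not test the knockout labels, because the edited exons are not given and a mutated transcript can persist. Of the 8 Smad genes 3 rose and 0 fell, and without WT replicate 1 the number that rose was 1. The shared partner Smad4 was at 49.6 and 52.3 CPM in WT and at 139 and 118 CPM in S23DKO (1.34 ± 0.20, adjusted p = 0.00189), called throughout. Genes across the chromosome that carries Smad4 were higher in these libraries, with values given further on. Smad5 (0.83 ± 0.21, adjusted p = 0.0146) and Smad9 (2.06 ± 0.44, adjusted p = 0.00666), both of the BMP branch, were called. The Smad5 call was lost without either WT library or S23DKO replicate 2 (adjusted p between 0.0789 and 0.0980), and the Smad9 call without WT replicate 1 (0.0844).

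The Nodal inhibitors Lefty1 and Lefty2 fell further than any other member of the Nodal target list. Lefty1 and Lefty2 are neighbours on chromosome 1 (build mm10), at 180935022 to 180938400 and at 180893108 to 180899103, both on the plus strand. Reads of the pair could be misplaced between them, so a stretch of the coding sequences where they differ most is shown. The coding sequences, of 1107 bases each in GENCODE M21, are 91.9% identical with 90 mismatches and no gap. The 90 bases from coding base 35 to 124 hold 27 of these mismatches, in capitals, and the longest run without a mismatch is 140 bases.
Lefty1: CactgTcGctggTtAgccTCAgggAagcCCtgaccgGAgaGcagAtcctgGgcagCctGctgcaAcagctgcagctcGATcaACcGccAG
Lefty2: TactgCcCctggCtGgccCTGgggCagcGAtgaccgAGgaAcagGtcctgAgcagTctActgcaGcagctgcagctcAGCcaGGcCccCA

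Lefty1 was at 226 and 225 CPM in WT and at 0.0587 and 0.0620 CPM in S23DKO, which was a log2 fold change of -11.81 ± 1.01 (adjusted p = 0.000141). Lefty2 was at 152 and 164 CPM in WT and at 0.489 and 0.124 CPM in S23DKO (-8.98 ± 1.18, adjusted p = 0.00114). Both genes were thus close to silent in both S23DKO libraries. In S4KO they were lower than in WT but not silent, at 18.97 and 30.7 CPM for Lefty1 and at 20.7 and 38.1 CPM for Lefty2. S23DKO against S4KO gave -8.63 ± 0.95 for Lefty1 (adjusted p = 0.000773) and -6.56 ± 1.09 for Lefty2 (0.00649). Lefty1 and Lefty2 were both called throughout.

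Against 14.4% lower and 16.7% higher of all genes, 5 of the 14 listed targets of Nodal and activin fell and 1 rose. Their median log2 fold change was -1.03 against 0.02 over all genes, and -1.25 against 0.03 at bounds. A median at bounds sets genes with 0 counts in 1 group at their bound. It leaves out genes with 3 or fewer counts in each group, here Cer1, and can move for that reason alone. The number that fell was between 3 and 6 in the fits without 1 library. Nodal itself was at 99.0 and 102 CPM in WT and at 57.6 and 27.0 CPM in S23DKO (-1.25 ± 0.43, adjusted p = 0.0462). The groups did not overlap, but the call was lost without WT replicate 1 (0.149), WT replicate 2 (0.135) or S23DKO replicate 2 (0.255) and with the length and GC correction (0.120). S4KO was at 54.5 and 57.6 CPM, within the S23DKO range. Pmepa1, an inhibitor of TGF-beta signals, was at 22.6 and 22.1 CPM in WT and at 8.17 and 6.80 CPM in S23DKO (-1.58 ± 0.39, adjusted p = 0.0124). Its call was lost without WT replicate 1 (0.0759) or S23DKO replicate 2 (0.0751).

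Other targets gave smaller values that were not called at day 0. The inhibitory Smad gene Smad7 gave -0.81 (adjusted p = 0.126), and was at 46.8 and 18.3 CPM in the S23DKO replicates against 55.5 and 58.3 CPM in WT. The co-repressor gene Skil gave 0.51 (0.198), and Tdgf1, the Nodal co-receptor Cripto, gave -0.48 (0.333). Mesendoderm genes were low in both genotypes. Eomes was at 3.96 and 4.24 CPM in WT and at 6.96 and 5.10 CPM in S23DKO (0.56, adjusted p = 0.110), and Mixl1, Gsc and Fgf8 were near or below 1 CPM in all 4 libraries. Cer1 had no counts in any of them. Foxa2, the member that rose, had no counts in WT and 0.215 and 0.475 CPM in S23DKO, at least 10.02-fold higher against a floor of 3 counts over the WT group. Its call was lost without WT replicate 1 (adjusted p = 0.0507). At day 4, in separate libraries, 13 of the 14 fell, against 8.0% of all genes.

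**Figure D2:**
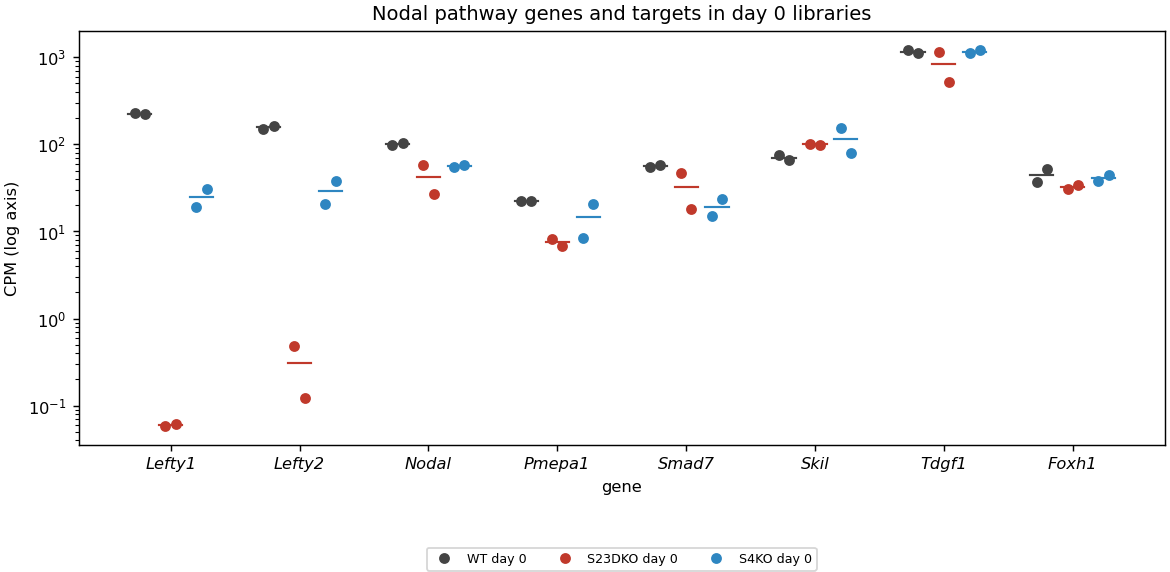
CPM (log axis) of Nodal pathway genes and targets in each day 0 library, 2 points per group with a line at the mean. Lefty1 and Lefty2 lie below 1 CPM in both S23DKO libraries and above 15 CPM in the WT and S4KO libraries, while Tdgf1 and Foxh1 stay in a similar range in all 3 genotypes.

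Ligands, receptors and processing enzymes of the Nodal pathway changed less than its inhibitors. Of the 21 tested members of that list of 22, 3 rose and 5 fell, against 16.7% and 14.4% of all genes. Of the members, Lefty1, Lefty2 and Tgfb1 held throughout. Without WT replicate 1, 0 rose and 3 fell. Tgfb1, the TGF-beta 1 ligand, was at 13.3 CPM in both WT libraries and at 3.60 and 2.52 CPM in S23DKO (-2.12 ± 0.43, adjusted p = 0.00579). The type I receptor gene Tgfbr1 was at 19.9 and 21.9 CPM in WT and at 49.8 and 64.6 CPM in S23DKO (1.45 ± 0.30, adjusted p = 0.00629; 0.0707 without WT replicate 1). The proprotein convertase gene Pcsk6, whose product processes Nodal, rose by 1.75 ± 0.32 (adjusted p = 0.00379; 0.0559 without WT replicate 1). Acvr2a, an activin type II receptor gene, rose by 1.02 ± 0.34 (0.0417), a call lost without WT replicate 1 (0.233), WT replicate 2 (0.0979) or S23DKO replicate 2 (0.188), or with the length and GC correction (0.114) or the replicate block (0.0514). The ligand gene Gdf1 was uneven in WT, at 3.88 and 0.260 CPM, and at 0.156 and 0 CPM in S23DKO. Its fall (-4.66 ± 1.46, adjusted p = 0.0327) was -1.69 without WT replicate 1 (0.545) and was also lost without S23DKO replicate 2 (0.137). Gdf3, Foxh1, Acvr1b, Acvr2b, Furin and Inhbb were not called, with log2 fold changes between -0.46 and 0.87. Against S4KO, Tgfb1 gave -1.29 (0.105) and Tgfbr1 0.48 (0.395), and neither was called.

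BMP targets were higher in part. Of the 15 tested, 7 rose and 0 fell, against 16.7% and 14.4% of all genes, with a median of 2.06 (1.57 at bounds). Of these 15, 4 held throughout. Without 1 library, between 4 and 7 rose, fewest without WT replicate 1. Id2, an inhibitor of basic helix-loop-helix factors, was at 18.5 and 20.2 CPM in WT and at 87.0 and 127 CPM in S23DKO (2.46 ± 0.28, adjusted p = 0.000600). Its level in S4KO was lower still, at 7.0 and 6.62 CPM, and S23DKO against S4KO gave 3.97 ± 0.30 (0.000111). The homeobox gene Msx2 was at 0.431 and 0.497 CPM in WT and at 5.73 and 7.995 CPM in S23DKO (3.88 ± 0.35, adjusted p = 0.000174), while S4KO was at 0.476 and 0.535 CPM. Gata2 and Dlx3, which are trophoblast factors as well as BMP targets, were the other members called throughout.

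The family did not move as one. Id1, the best known BMP target of ES cells, was at 48.8 and 51.3 CPM in WT and at 80.0 and 49.1 CPM in S23DKO (0.37 ± 0.42, adjusted p = 0.529), overlapping ranges. In S4KO Id1 was at 4.70 and 4.60 CPM, so S23DKO against S4KO gave 3.80 ± 0.47 (0.00147). Id3 (0.56, 0.535), Id4 (-0.28, 0.575), Smad6 (0.22, 0.804), Bambi (-0.37, 0.236), Msx1 (1.08, 0.172) and Tfap2a (1.06, 0.115) were not called. Against S4KO 8 of the 15 were higher and 0 lower, against 3.38% and 2.15% of all genes. S4KO itself had 5 of the 15 lower than WT and 0 higher, against 9.14% and 10.5% of all genes. Id1 (-3.43) and Id3 (-2.15) were among the 5. Both were called in S23DKO against S4KO but not against WT, and S4KO had the lowest level. At day 4 against WT 8 of the 15 were higher and 1 lower, against 7.21% and 8.0% of all genes. Among 15 BMP ligands, receptors and inhibitors 3 rose and 1 fell, against 16.7% and 14.4% of all genes, none throughout. None of them was called without WT replicate 1, and the number that fell was 0 without WT replicate 2 or S23DKO replicate 2 and 2 without S23DKO replicate 1. The type I receptor gene Bmpr1a rose by 1.60 ± 0.32 (adjusted p = 0.00506; 0.0622 without WT replicate 1), and the ligand gene Bmp4 gave -0.94 (0.178).

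Promoters of 4 BMP targets are shown because Smad1 and Smad5 are known to bind GC-rich elements: Id2, Msx2 and Gata2, which rose, and Id4, which was not called. They are the 250 bases before the start site in RefSeq (build GRCm38.p6), each read along its gene's strand, and capitals mark GGCGCC, searched on both strands (it is its own reverse complement). It occurs in 9.59% of the 32851 promoters of that set. Of the 10 BMP targets with a promoter there, 4 hold it, 3 of the 5 that rose and 1 of the 5 that were not called, and no test was made of these numbers. Id2 is at chr12:25096093-25096342 and Msx2 at chr13:53472781-53473030, both on the minus strand. Id4 is at chr13:48260866-48261115 on the plus strand, and the second start of Gata2 is at chr6:88198414-88198663 on the plus strand.
Id2: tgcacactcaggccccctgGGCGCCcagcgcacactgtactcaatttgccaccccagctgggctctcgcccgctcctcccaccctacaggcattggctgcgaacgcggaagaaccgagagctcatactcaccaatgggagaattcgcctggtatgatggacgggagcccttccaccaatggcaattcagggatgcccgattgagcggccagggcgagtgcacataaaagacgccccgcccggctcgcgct
Id4: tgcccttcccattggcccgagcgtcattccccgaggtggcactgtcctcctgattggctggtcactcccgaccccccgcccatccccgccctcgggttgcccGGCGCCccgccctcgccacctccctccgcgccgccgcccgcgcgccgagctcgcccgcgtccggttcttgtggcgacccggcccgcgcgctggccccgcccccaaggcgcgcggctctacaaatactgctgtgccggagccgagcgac
Gata2: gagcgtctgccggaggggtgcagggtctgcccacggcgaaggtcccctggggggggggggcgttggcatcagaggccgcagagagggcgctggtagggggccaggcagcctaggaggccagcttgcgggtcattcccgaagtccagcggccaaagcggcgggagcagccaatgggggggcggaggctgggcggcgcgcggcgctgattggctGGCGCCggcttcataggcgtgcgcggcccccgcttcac
Msx2: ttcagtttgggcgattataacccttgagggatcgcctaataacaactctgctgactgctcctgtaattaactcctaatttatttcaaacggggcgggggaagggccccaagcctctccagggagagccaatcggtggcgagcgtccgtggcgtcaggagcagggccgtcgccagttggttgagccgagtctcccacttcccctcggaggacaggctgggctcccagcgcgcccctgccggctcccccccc

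The element begins 231 bases before the start in Id2, 148 in Id4 and 38 before the second start of Gata2. The letters were not found in this window of Msx2, which rose as well, nor before the first start of Gata2. A match is a description of letters, not a bound site.

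Many trophoblast genes rose. Of 18 trophoblast transcription factors 10 rose and 0 fell (median 1.43), against 16.7% and 14.4% of all genes. The 5 that held throughout were Pparg, Dlx3, Gata3, Gata2 and Arid3a. The number that rose was between 5 and 11 in the fits without 1 library, lowest without WT replicate 1. Gata3, a master factor of trophectoderm (chromosome 2, 9857078 to 9890034), was at 0.384 and 0.432 CPM in WT and at 10.8 and 17.7 CPM in S23DKO (5.12 ± 0.52, adjusted p = 0.000364). Gata2 was at 2.44 and 1.86 CPM in WT and at 34.7 and 31.3 CPM in S23DKO (3.94 ± 0.44, adjusted p = 0.000552). The homeobox gene Dlx3 was at 0.336 and 0.389 CPM and at 22.2 and 12.4 CPM (5.57 ± 0.78, adjusted p = 0.00146). All 3 were near the WT level in S4KO, between 0.145 and 4.20 CPM, and were called against S4KO as well. Pparg, the nuclear receptor needed for placental development, had no counts in WT and 7.35 and 12.6 CPM in S23DKO, at least 290.5-fold higher. Cdx2, which is known to start the trophectoderm programme, rose at a low level. It was at 0 and 0.130 CPM in WT and at 1.25 and 0.434 CPM in S23DKO (3.60 ± 0.96, adjusted p = 0.0168). Leaving out WT replicate 1 (0.108) or S23DKO replicate 1 (0.0766), or fitting only the 4 libraries compared (0.0528), ended that call. Of the factors, Gata2, Dlx3, Hand1 and Tfap2a are also on the BMP target list.

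Products of trophoblast rose too, with 12 of 23 tested genes higher and 0 lower, against 16.7% and 14.4% of all genes. Their median was 1.69 (1.47 at bounds), and 3 of the 12 held throughout. Without WT replicate 1 only those 3 were called, and between 5 and 12 without the other libraries. Plac1, an X-linked gene of placental growth, was at 0.120 and 0 CPM in WT and at 25.1 and 16.98 CPM in S23DKO (8.46 ± 0.68, adjusted p = 0.000117). Syna, the placental fusion gene syncytin A, was at 0.455 and 0.735 CPM in WT and at 7.02 and 12 CPM in S23DKO (3.99 ± 0.40, adjusted p = 0.000338). The simple-epithelium keratin gene Krt8 was at 68.8 and 67.0 CPM in WT, at 275 and 526 CPM in S23DKO and at 6.25 and 20.6 CPM in S4KO. Krt8 gave 2.56 ± 0.81 against WT (adjusted p = 0.0330), lost without WT replicate 1 (0.160), WT replicate 2 (0.137) or S23DKO replicate 2 (0.136), and 4.90 ± 0.90 against S4KO (0.0104). Its partner Krt18 gave 1.69 ± 0.67 (0.0775) and was not called. Tpbpa, a spongiotrophoblast marker, had no counts in WT and 0 and 0.186 CPM in S23DKO. In bulk libraries, a small number of cells with a high level and a low level in all cells cannot be told apart.

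Families that are known for placental expression did not all rise. All 7 Serpinb9 genes, protease inhibitors clustered on chromosome 13, rose, 6 of them throughout, and their summed level went from 2.35 and 2.34 CPM in WT to 30.5 and 77.4 CPM in S23DKO. Of those with no counts in WT, Serpinb9e was at least 423.9-fold higher, Serpinb9f at least 115.5-fold, Serpinb9c at least 109.3-fold, Serpinb9g at least 79.84-fold and Serpinb9d at least 53.32-fold higher. These paralogs resemble each other, so the split of reads among them is uncertain. Serpinb9 itself gave 2.15 ± 0.54 (adjusted p = 0.0132), lost without WT replicate 1 (0.124) or S23DKO replicate 2 (0.0765). Of 23 tested Rhox genes, an X-linked homeobox cluster, 7 rose (2 or 3 without 1 library), and Rhox6 and Rhox9 held throughout. Rhox6 was at 10.2 and 6.46 CPM in WT and at 63.2 and 154 CPM in S23DKO (3.70 ± 0.64, adjusted p = 0.00307). Of 14 tested prolactin-like hormone genes 3 rose, their summed level was 0 CPM in both WT libraries and 0.626 and 3.95 CPM in S23DKO, and none held throughout (5 rose without S23DKO replicate 1 and 0 without any of the others). The pregnancy-specific glycoprotein and Ceacam family gave 1 higher and 1 lower of 12 tested (median -0.03). The placental cathepsins gave 1 higher and 0 lower of 4, and neither family had a call throughout. Beside the counts of these families, 16.7% of all genes were called higher and 14.4% lower. At day 4, 11 of the 14 prolactin-like and 14 of the 23 Rhox genes were higher, against 7.21% of all genes.

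**Figure D3:**
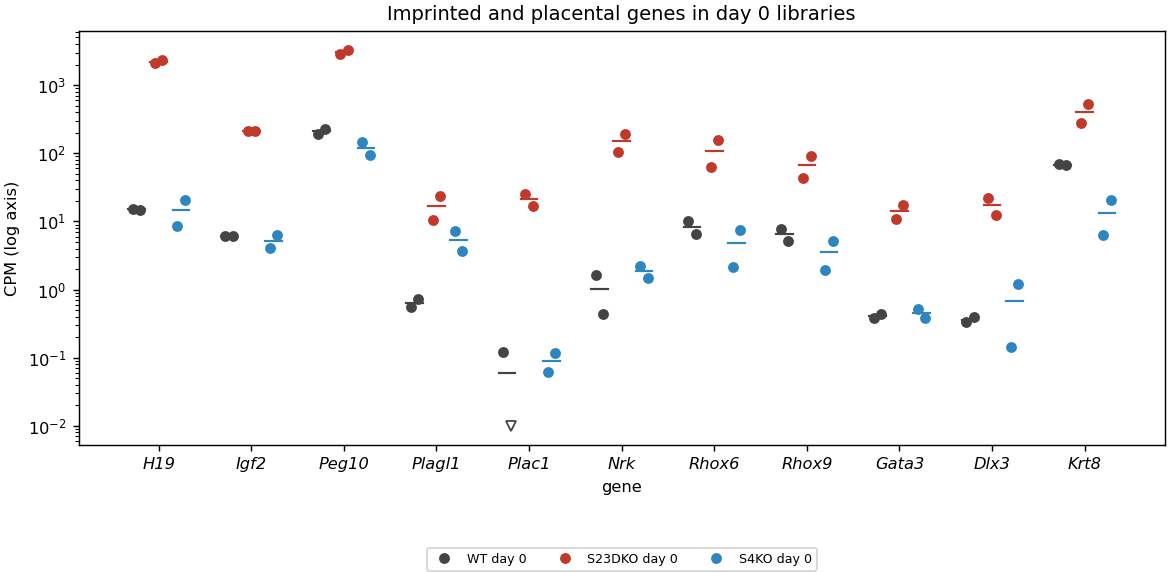
CPM (log axis) of imprinted and placental genes in each day 0 library, 2 points per group with a line at the mean, and an open triangle at the lower edge for a library with no counts. The S23DKO points lie above those of WT and S4KO for each of the 11 genes.

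Extraembryonic endoderm and basement membrane genes were the next group. Of 20 extraembryonic endoderm genes 9 rose and 1 fell, against 16.7% and 14.4% of all genes. Their median was 1.61 (2.11 at bounds), and 6 of the rises held throughout. Between 6 and 9 rose in the fits without 1 library. Gata6, the factor that starts primitive endoderm, was at 0.407 and 0.346 CPM in WT and at 3.36 and 6.49 CPM in S23DKO (3.70 ± 0.55, adjusted p = 0.00186). Gata4 was at 1.03 and 1.08 CPM in WT and at 6.10 and 8.02 CPM in S23DKO (2.74 ± 0.30, adjusted p = 0.000497). The receptor gene Pdgfra gave 3.99 ± 0.43 (0.000429), the retinol transporter gene Stra6 3.93 ± 0.66 (0.00272) and Cubn, which encodes cubilin, 3.73 ± 0.59 (0.00231; 0.0529 with log2(FPKM + 1)). Not all members of the list were called. Ttr had no counts in any of the 4 libraries, Apoe gave -1.42 (0.0733), and Sox17 gave 2.30 (0.0938).

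S4KO lay between WT and S23DKO for several of these genes. Gata6 was at 1.03 and 2.85 CPM there and S23DKO against S4KO was not called (1.34, adjusted p = 0.137), while Gata4 (1.08, 0.0478) and Pdgfra (1.90, 0.0153) were. Of 12 basement membrane genes 5 rose, against 16.7% of all genes, and 4 of the 5 held throughout. Col4a1, a collagen IV chain gene, was at 15.5 and 21.2 CPM in WT and at 155 and 218 CPM in S23DKO (3.34 ± 0.42, adjusted p = 0.000911). Its partner Col4a2 gave 2.98 ± 0.47 (0.00215). The laminin gene Lama1 (1.29 ± 0.23, 0.00335) and the nidogen gene Nid1 (1.83 ± 0.30, 0.00252) rose less, and neither was called against S4KO (0.54, 0.196, and 0.23, 0.715).

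**Figure D4:**
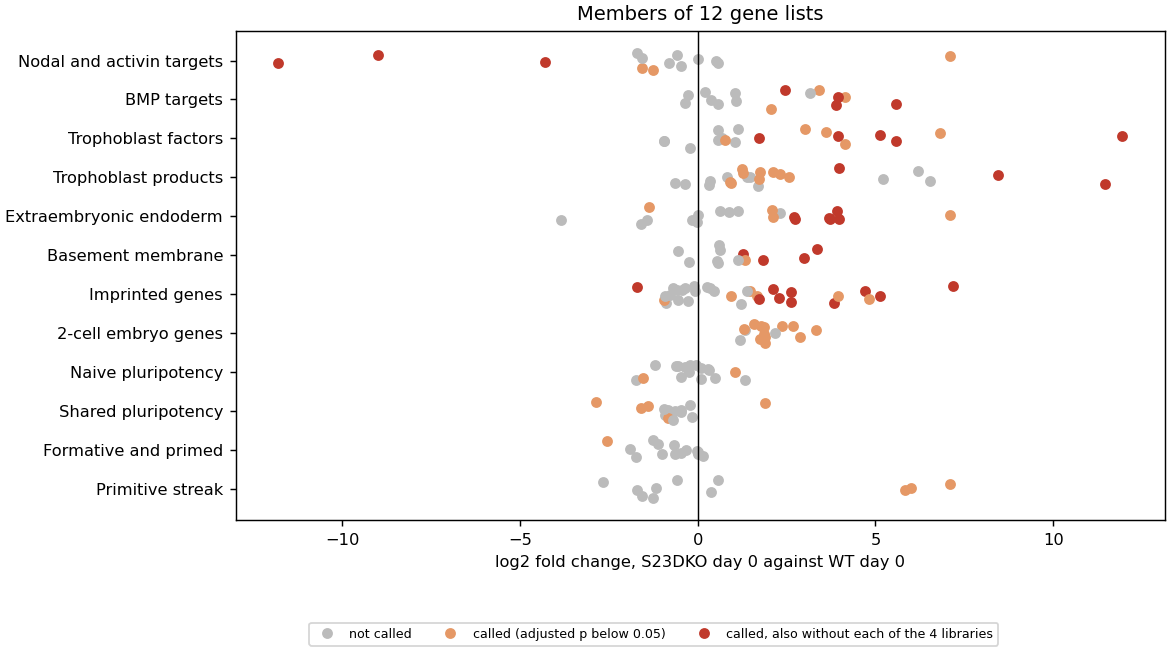
Log2 fold change of S23DKO day 0 against WT day 0 (horizontal axis) for each tested member of 12 gene lists, with 1 point per gene, coloured by whether it was called. Points of genes with no counts in a group are fitted values that depend on a prior count. The members called throughout lie at the right in the BMP, trophoblast, endoderm, basement membrane and imprinted lists, except for Grb10, and at the left among the Nodal targets.

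Imprinted genes held some of the largest changes in level. Of 32 tested 14 rose and 2 fell (median 0.70), against 16.7% and 14.4% of all genes, with 9 rises and 1 fall throughout. Between 9 and 14 rose in the fits without 1 library. H19, a non-coding RNA expressed from the maternal allele (chromosome 7, 142575529 to 142578143), was at 15.4 and 14.8 CPM in WT and at 2073 and 2333 CPM in S23DKO (7.19 ± 0.48, adjusted p = 7.00e-05). Its neighbour Igf2, a growth factor gene expressed from the paternal allele (142650766 to 142666816), was at 6.16 and 6.01 CPM in WT and at 214 and 212 CPM in S23DKO (5.13 ± 0.49, adjusted p = 0.000237). The retrotransposon-derived placental gene Peg10 was at 195 and 230 CPM in WT and at 2811 and 3266 CPM in S23DKO (3.84 ± 0.35, adjusted p = 0.000174). S4KO did not share these rises, with H19 at 8.68 and 20.5 CPM, Igf2 at 4.02 and 6.36 CPM and Peg10 at 147 and 94.8 CPM. Plagl1, a zinc finger gene, was at 0.551 and 0.735 CPM in WT, at 10.3 and 23.6 CPM in S23DKO (4.71 ± 0.48, adjusted p = 0.000338) and at 7.14 and 3.69 CPM in S4KO. Both parental expression classes were represented, as H19 is maternally and Igf2, Peg10 and Plagl1 are paternally expressed.

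Not every imprinted gene moved. Meg3 (-0.55, adjusted p = 0.153), Dlk1 (-0.35, 0.704) and Cdkn1c (-0.11, 0.824) were not called. Grb10, a growth inhibitor gene singled out after its value was seen, fell from 146 and 165 CPM to 58.2 and 37.2 CPM (-1.70 ± 0.31, adjusted p = 0.00363). Airn, an antisense transcript of Igf2r, rose (4.83 ± 1.02, adjusted p = 0.00646), as did Kcnq1ot1 (3.95 ± 0.88, 0.00813), for which strand was not given, so reads from overlapping genes cannot be told apart. The call for Airn was lost without WT replicate 1 (0.0671), and that for Kcnq1ot1 without WT replicates 1 and 2 or S23DKO replicate 2 (0.0711, 0.0606 and 0.0862). The maintenance methyltransferase gene Dnmt1 (0.27, 0.463), its co-factor gene Uhrf1 (0.09, 0.812) and Dnmt3b (-0.01, 0.998) were not called. Among 9 genes of DNA methylation only the dioxygenase gene Tet3 was, higher by 2.41 ± 0.58 (0.0111) and lost without WT replicate 1 (0.101) or WT replicate 2 (0.0512).

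Many pluripotency genes had high levels in all 4 libraries, but their sums were not equal. The naive list summed to 4274 and 4369 CPM in WT and to 4758 and 2646 CPM in S23DKO. The general list, given below, summed to 12420 and 11040 CPM in WT and to 7700 and 4614 CPM in S23DKO. In S4KO the general list summed to 7777 and 7680 CPM. Of 18 naive pluripotency genes 1 rose (Tfcp2l1, 1.06) and 1 fell (Tdh, -1.55). Tdh was at 713 and 669 CPM in WT and at 384 and 88.1 CPM in S23DKO. These counts stood beside 16.7% higher and 14.4% lower of all genes, and neither call held throughout. Without S23DKO replicate 1, 0 rose and 6 fell, and without any of the other 3 libraries 0 were called. Nanog was at 480 and 495 CPM in WT and at 729 and 644 CPM in S23DKO (0.49 ± 0.24, adjusted p = 0.139). Klf4 and Esrrb were uneven between the S23DKO replicates, at 360 and 83.5 CPM and at 598 and 240 CPM, against 156 and 205 CPM and 525 and 638 CPM in WT, and neither was called (0.30, adjusted p = 0.740, and -0.47, 0.452). Of 14 general pluripotency genes, common to the naive and primed states, 4 fell and 1 rose (median -0.77), against 14.4% and 16.7% of all genes. The 4 were Pou5f1, Utf1, Dppa5a and Dppa4, and none held throughout. Utf1 was at 429 and 521 CPM in WT and at 104 and 27.6 CPM in S23DKO. Pou5f1, which encodes Oct4, was at 2164 and 2170 CPM in WT, at 935 and 719 CPM in S23DKO and at 958 and 1256 CPM in S4KO. It fell by 1.39 ± 0.33 against WT (adjusted p = 0.00983; 0.0643 without WT replicate 1 and 0.0669 without S23DKO replicate 2) and gave -0.42 (0.499) against S4KO. The number of the list's members that fell was between 0 and 9 in the fits without 1 library, 0 without WT replicate 1 and 9 without S23DKO replicate 1.

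Genes of the formative and primed epiblast were mostly not called before differentiation. Of the 14 in that list 1 fell and 0 rose (median -0.65). The number that fell was 0 without WT replicate 1, 5 without S23DKO replicate 1 and 3 with the length and GC correction. Otx2 was at 47.6 and 57.5 CPM in WT and at 50.2 and 25.5 CPM in S23DKO (-0.47, adjusted p = 0.387), and Fgf5 was at about 1 CPM or less in each library (-1.89, 0.228). Of 11 tested primitive streak genes 3 rose, at low levels, and between 0 and 2 rose in the fits without 1 library, 0 without WT replicate 1. Over all genes at day 0, 16.7% were called higher and 14.4% lower. At day 4 12 of the 14 and 10 of the 11 were lower, against 8.0% of all genes.

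Other signalling lists depended on the libraries. Over all genes 16.7% were called higher and 14.4% lower. Wnt targets gave 2 higher and 1 lower of 13, LIF and STAT3 targets 1 and 0 of 11, and FGF and MAP kinase targets 0 and 1 of 13. None of these calls held throughout. All 3 lists had 0 calls without WT replicate 1. Without S23DKO replicate 1 the numbers lower were 4, 3 and 8, and those higher 1, 0 and 0. The immediate-early genes Fos and Egr1 differed more between the S23DKO replicates than between the genotypes, at 55.6 and 5.91 CPM and at 104 and 6.09 CPM in replicates 1 and 2. They were at 80.5 and 106 CPM and at 140 and 161 CPM in WT. Of 8 tested YAP and TEAD targets 3 rose, and 1 or 2 in the fits without 1 library. The junction protein gene Amotl1 held throughout (1.53 ± 0.22, adjusted p = 0.00153). Lats2, a Hippo kinase gene, gave 2.99 ± 0.67 (0.00826; 0.0831 without WT replicate 1), and was at 2.47 and 2.85 CPM in WT and at 14.7 and 27.5 CPM in S23DKO. The adhesion list gave 4 higher and 1 lower of 20, and 1 and 0 without WT replicate 1. The desmosome gene Dsp rose by 1.70 ± 0.20 (0.000637) and held throughout, but was as high in S4KO, at 95.7 and 85.3 CPM against 78.0 and 86.0 CPM in S23DKO. E-cadherin (Cdh1) gave -0.20 (0.474).

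Genes of the 2-cell embryo were higher in a way that depended on the libraries. Of 15 tested, 12 rose and 0 fell (median 1.87), against 16.7% and 14.4% of all genes, and 0 held throughout. Their summed level was 32.1 and 34.6 CPM in WT, 199 and 84.2 CPM in S23DKO and 125 and 43.2 CPM in S4KO. Without WT replicate 1, 0 of them were called, without WT replicate 2 or S23DKO replicate 1 there were 4, and without S23DKO replicate 2 there were 12. Against S4KO 0 were called. Zscan4e, whose family extends telomeres, was at 26.6 and 11.2 CPM in S23DKO and at 2.23 and 2.88 CPM in WT (2.89 ± 0.61, adjusted p = 0.00671; 0.0761 without WT replicate 1). The Zscan4 and Usp17l genes are near-identical copies, and reads may be placed on the wrong one.

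Of 15 germ cell genes 5 rose and 0 fell, none throughout (0 without WT replicate 1), and Dazl gave 0.71 (adjusted p = 0.390). Of 15 p53 target genes 6 rose and 2 fell, between 1 and 7 rose in the fits without 1 library, and the X-linked receptor gene Eda2r, at 26.6 and 31.8 CPM in WT and at 156 and 256 CPM in S23DKO, held throughout (2.82 ± 0.37, 0.00114). The gene for p53 itself, Trp53, fell by 1.09 ± 0.32 (0.0258), lost without either WT library (0.0910 and 0.113) or S23DKO replicate 2 (0.133). Of 25 tested Hox genes 7 rose, at low levels (between 1 and 5 without 1 library), and their summed level was 8.197 and 9.36 CPM in WT, 20.6 and 23.1 CPM in S23DKO and 16.6 and 23.2 CPM in S4KO. Only Hoxd9 held throughout, with no counts in WT and 0.978 and 1.03 CPM in S23DKO. Glycolysis genes gave 2 higher and 1 lower of 16 (1 and 3 without S23DKO replicate 1), sterol synthesis genes 1 and 3 of 15 (3 and 1) and cell cycle genes 0 and 2 of 19 (1 and 5). These 3 lists had 1 call without WT replicate 1, in a glycolysis gene. The glucose transporter gene Slc2a3 rose from 947 and 1011 CPM to 2240 and 1817 CPM (1.05 ± 0.18, 0.00321), and S4KO was at 1736 and 1604 CPM. Beside the counts of the germ cell, p53, Hox, glycolysis, sterol and cell cycle lists, 16.7% of all genes were called higher and 14.4% lower.

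Ribosomal protein genes fell almost as a block. Of 81, 73 fell and 0 rose (median -1.37), 13 of them throughout, and between 14 and 68 fell in the fits without 1 library, 14 without WT replicate 1. Rps20 was at 4192 and 2510 CPM in WT and at 1042 and 1030 CPM in S23DKO (-1.69 ± 0.30, adjusted p = 0.00341). Against S4KO 0 of the 81 were called, and 67 were lower in S4KO against WT (background 19.6% of genes called in that comparison, 9.14% lower). Nuclear OXPHOS genes gave 65 lower and 0 higher of 79, 14 throughout, and 1 of 79 lower against S4KO. Over all genes 14.4% were lower against WT and 2.15% against S4KO. Of 13 protein genes of the mitochondrial genome 5 rose, and between 1 and 6 in the fits without 1 library. Of these mt-Nd4l held throughout (2.79 ± 0.34, 0.000861) and was as high in S4KO, at 249 and 168 CPM against 241 and 278 CPM. Whether culture, RNA handling or library preparation set these shares in the WT libraries was not tested.

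The rule for the largest changes named further genes with the same breadth. Olr1, a lectin-like receptor, and Fam90a1b had no counts in WT, with rises of at least 203.6-fold for Olr1 and 205.9-fold or more for Fam90a1b. Csf1r, the receptor of macrophage colony-stimulating factor that is also made by trophoblast, was at least 206.5-fold higher. Nrk, an X-linked kinase of the placenta, was at 1.63 and 0.432 CPM in WT and at 105 and 192 CPM in S23DKO (7.18 ± 0.65, adjusted p = 0.000174). The RNA export gene Nxf7, also X-linked, was at 0.503 and 1.06 CPM and at 43.2 and 110 CPM (6.60 ± 0.56, 0.000141). Pcdh12 and Cdh5, cadherins known from endothelium, reached 3.99 and 10.3 CPM and 8.37 and 8.14 CPM in S23DKO, against 0.108 CPM or less in WT. Chml, a Rab escort protein gene, differed in kind. It was at 0.192 and 0.368 CPM in WT day 0 and at 25.7 and 19.96 CPM in S23DKO (6.32 ± 0.48, 0.000117), but also at 37.2 and 19.3 CPM in S4KO and at 40.8 and 23.4 CPM in WT day 4. Of these groups, only WT day 0 had it below 1 CPM.

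Besides the Lefty genes, large drops were those of Trim67, Kirrel2, Psmb10, Sfn and Tmem238. Trim67, a ubiquitin ligase gene, was at 5.82 and 7.07 CPM in WT and at 0.196 and 0.0413 CPM in S23DKO (-5.72 ± 0.89, adjusted p = 0.00218). Kirrel2, a gene of the nephrin-like adhesion family, was at 24.3 and 29.4 CPM in WT, at 1.66 and 1.22 CPM in S23DKO (-4.22 ± 0.68, 0.00247) and at 18.6 and 32.6 CPM in S4KO. Its S4KO and WT ranges overlapped, as those of H19 and Igf2 did. Psmb10, an immunoproteasome subunit gene, fell from 61.9 and 44.7 CPM to 4.24 and 3.70 CPM (-3.75 ± 0.54, 0.00163). Sfn, the 14-3-3 sigma gene, fell from 102 and 87.4 CPM to 8.58 and 6.28 CPM (-3.67 ± 0.64, 0.00321) and was at 12.7 and 40.4 CPM in S4KO.

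Sex-linked genes differed between the lines. Of 6 Y-linked genes 5 fell throughout, and their summed level was 97.8 and 96.6 CPM in WT, 0.117 and 0.103 CPM in S23DKO and 100.5 and 91.7 CPM in S4KO. Eif2s3y, at 65.5 and 65.9 CPM in WT, had no counts in S23DKO, at least 2181-fold lower. Its X-linked partner Eif2s3x rose from 202 and 232 CPM to 597 and 722 CPM (1.60 ± 0.24, adjusted p = 0.00186). Xist, the RNA of X inactivation, singled out after its value was seen, was at 0.839 and 1.04 CPM in WT and at 33.2 and 80.0 CPM in S23DKO (5.91 ± 0.67, 0.000600). Over genes averaging 1 CPM or more, the median log2 fold change was 0.58 on the X chromosome (521 genes) and 0.48 on chromosome 18 (348 genes), against -0.03 over all 13832. With the length and GC correction these medians were 0.29, 0.15 and -0.16. Genes called throughout as higher made up 14.2% of the X and 11.5% of chromosome 18, against 3.46% of all. Against S4KO the medians were 0.33 for X and 0.44 for chromosome 18, and at day 4 they were 0.04 and 0.29. Plac1, Nrk, Nxf7, Rhox6, Rhox9, Eda2r, Klhl13, Dusp9, Fam90a1b and Eif2s3x are X-linked. Smad4, Gata6, Csf1r and Pcdh12 are on chromosome 18. The rises of these genes occurred on chromosomes whose median was higher. Smad2 is on chromosome 18 too, and its log2 fold change of 0.33 was below that chromosome's median of 0.48. The loss of Smad2 and Smad3 and other differences between these lines cannot be told apart. Hprt was at about 0.5 CPM in both genotypes and at 212 and 204 CPM in S4KO, which marks S4KO as differing from both. On chromosome 8 (724 genes) the median of S4KO against WT was 0.51. There S23DKO gave -0.68 against S4KO and -0.21 against WT. On chromosome 19 (476 genes) S23DKO gave -0.36 against S4KO and -0.28 against WT. In values against S4KO, differences of either knockout line cannot be told apart.

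Markers of other cell types were taken as lists. The blood and macrophage list summed to 44.7 and 48.1 CPM in WT and to 26.5 and 45.3 CPM in S23DKO, Csf1r was the 1 call among 7 tested, and Ptprc, the pan-leukocyte marker, had no counts in the 4 libraries. The fibroblast list summed to 31.0 and 35.9 CPM in WT and to 34.1 and 32.5 CPM in S23DKO, with 1 call of 8, Postn, at 0.978 and 10.8 CPM in S23DKO. That call was lost without either WT library (adjusted p = 0.121 and 0.0784) or S23DKO replicate 2 (0.124). Endothelial markers gave 2 higher and 1 lower of 7 (1 and 0 without WT replicate 1). Mesoderm markers gave 5 higher and 0 lower of 8, against 16.7% and 14.4% of all genes, and 1 of the 5 held throughout. Their summed level was 1.46 and 2.18 CPM in WT and 18.6 and 15.9 CPM in S23DKO. Most of the S23DKO sum came from Hand1, at 10.4 and 5.08 CPM, and Pdgfra, at 4.73 and 8.18 CPM. Both were among the 5 and are on other lists too.

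At day 4, in libraries not used at day 0, part of these differences recurred. Of all 3114 genes called higher at day 0, 664 (21.3%) were called higher at day 4 and 63 lower. Of the 2685 called lower, 445 (16.6%) were called lower at day 4 and 18 higher. The sign was shared by 70.9% and 79.2% of them. Over all genes tested, 7.21% were called higher and 8.0% lower at day 4. Genes called throughout recurred more often. Of the 506 genes called throughout as higher at day 0, 231 were called higher at day 4, which is 45.7% of them and 17.1% of the 1347 called higher then, and 9 were called lower. Of the 372 called throughout as lower, 141 were called lower at day 4, 37.9% of them and 9.43% of the 1495, and 1 was called higher. The sign was shared by 440 of the 506 (87.0%) and by 350 of the 372 (94.1%). Across the 878 genes the log2 fold changes correlated at Pearson's r = 0.771 and Spearman's rho = 0.774, a description across genes of the same cell lines. H19 reached 7155 and 8828 CPM in S23DKO at day 4 against 80.0 and 104 CPM in WT (6.44 ± 0.46, adjusted p = 4.06e-05). Gata2 reached 120 and 138 CPM against 0.682 and 1.51 CPM (6.87 ± 0.51, 4.06e-05). Among the 20 extraembryonic endoderm genes, by contrast, 2 were higher and 8 lower at day 4, against 7.21% and 8.0% of all genes. Cubn was then at 372 and 296 CPM in WT and at 65.0 and 35.01 CPM in S23DKO (-2.74 ± 0.52, 0.00576).

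**Figure D5:**
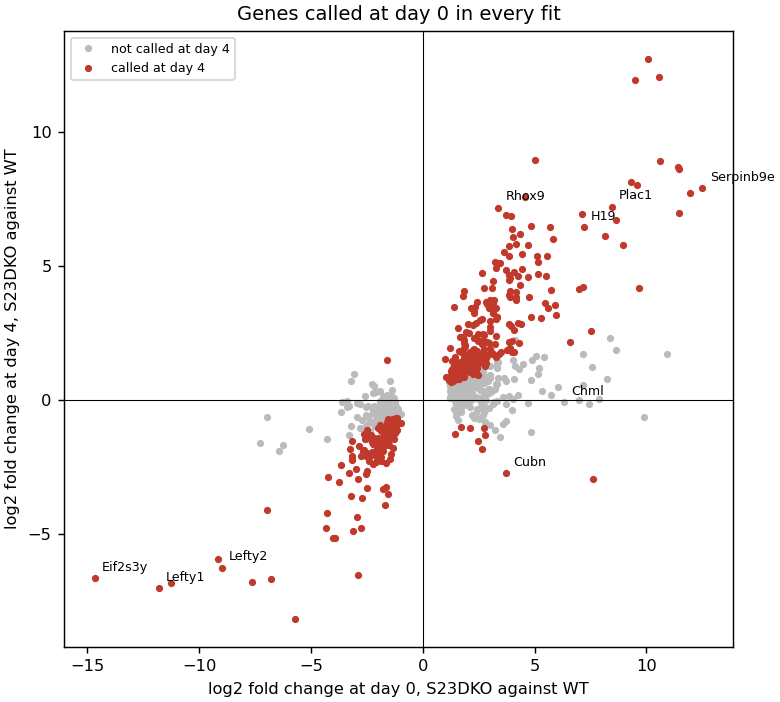
Log2 fold change at day 4 (vertical axis) against that at day 0 (horizontal axis), S23DKO against WT, for the 878 genes called throughout at day 0, with the genes called at day 4 in red. Most points lie in the quadrants of equal sign, and Cubn is among the 10 genes called in the opposite direction at day 4.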

How the data were processed

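Libraries were made from total RNA with a TruSeq kit (500 ng input, integrity number above 9.5), per the labels. The authors deposited whole-number counts per Ensembl gene ID, without normalization, and FPKM values per gene symbol, both with 1 column per library. Per the submitters' processing notes, the build was mm10, and StringTie, Cufflinks and DESeq2 were among the tools, with no version or purpose stated. Aligner and strand setting are not given in the sources used here. Values of 1 (4966) were rarer than values of 2 (6989), so the counts may not be direct tallies of reads.

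Samples were grouped by title. Of 32285 IDs 32235 were matched to a symbol in GENCODE M21, and 31481 symbols occur in both tables. Counts of all 12 libraries were fitted with edgeR 4.0.16 (R 4.3.3; glmQLFit, glmQLFTest, TMM, filterByExpr), with 1 coefficient per group (biological coefficient of variation 0.286). SE is the fold change divided by the square root of F. On simulated counts with the same design, 42 of 50 genes raised 4-fold and 37 of 50 lowered 4-fold were called. So were 0 of 50 raised 2-fold and 4 of 50 lowered 2-fold, with 6 false calls of 17737. The simulated counts had 1 spread for all genes, and equal means in all groups except for the changed genes. They lacked the shift of the WT day 0 libraries, so these numbers do not carry over to the comparison. Replicates differed by more than counting noise (from 31.2 to 248 units of chi-square for each gene of 20 or more counts), so none was a copy. Folds against 0 counts use a floor of 3 counts over the group, covering counting error only.

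Members and the 42 gene lists were chosen with earlier results of these data known. Smad2, Smad3 and Smad4 were always named. Others were the 12 largest rises and drops, and the 6 largest changes in CPM per direction, among genes called throughout, without overlap and with at least 5 CPM in the higher group. List members were up to 6 called and 3 defining uncalled genes, and any member of the Nodal, Smad and BMP target lists. Grb10, Snrpn, Serpinb9, Hprt and Xist, and some members named to resolve a count, were chosen after their values were seen. Alternatives were other filters, RLE, DESeq2 1.42.0, limma 3.58.1 on log2(FPKM + 1 or 0.1), a replicate block, a length and GC correction (spline, 5 df, 99.9% of genes), the 4 libraries alone, and leaving out each library, in which a lone sample is assumed to vary like the other groups. The call throughout was added after seeing the data. A gene that the rule names is counted in its list but not reported here by name. Promoters come from RefSeq and were found for 129 of 182 named genes. Tables and figures were made in Python 3.11.15 (matplotlib 3.10.9, scipy 1.17.1, numpy 2.4.6, pandas 2.3.3).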

Additional observations from a re-analysis of the deposited data

Results flagged for a closer look

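A test of the difference between the day 0 and day 4 effects of S23DKO against WT (the log2 fold change at day 0 minus that at day 4, an interaction term in edgeR's quasi-likelihood fit) passed for 1140 of 18693 genes (6.10%; 5389 at an unadjusted p below 0.05). It passed for 41 of the named genes, and the values below are these differences.

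Among Smad genes and Nodal targets the difference was 1.48 for Smad1 and 1.41 for Smad5, -4.78 for Lefty1 and 2.20 for Skil. Mesendoderm genes that WT cells express at day 4 gave 5.79 for Eomes (adjusted p = 9.02e-05), 5.22 for Gsc, 8.19 for Mixl1 and 5.86 for Fgf8. Foxa2 gave 11.29, a fitted value that depends on a prior count because WT day 0 had no counts. The BMP pathway genes Msx1, Msx2 and Bmper gave 3.16, 1.74 and 4.84.

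Of the trophoblast genes, Gata2 gave -2.93, Syna -2.40, Rhox6 -3.19 and Rhox9 -3.78, with larger rises at day 4, whereas Nrk gave 3.00 and Nxf7 4.46, with smaller ones. Dab2, which is on both the trophoblast and the extraembryonic endoderm lists, gave 4.36, with 2.12 at day 0 and -2.23 at day 4. Of the extraembryonic endoderm list, Pdgfra gave 4.37, Cubn 6.47, Gata6 4.51 and Gata4 3.79, and the basement membrane gene Col4a1 gave 2.54. For the pluripotency and methylation genes it was 1.32 for Nanog, 2.36 for Rif1, 2.73 for Dnmt3b and 1.16 for Dnmt3a, and for the imprinted genes it was -2.11 for Cdkn1c and 2.21 for Grb10.

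The 2-cell embryo genes Zscan4e and Zscan4b gave 3.32 and 3.07. The keratin genes Krt17 and Krt42 gave -3.36 and -3.54, Sfn gave -3.21, Rpl14 gave -1.55, Amotl1 gave 1.19 and Chml gave 6.43. The mitochondrial genes mt-Nd4l, mt-Nd5 and mt-Atp8 gave 3.62, 2.23 and 2.45.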

How the results depend on the processing

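For S23DKO against WT at day 0 the count of called genes, 5799, was between 4449 and 6832 under the alternatives that kept all 4 libraries, and between 921 and 5073 without 1 of them. The higher share was 53.7%, but 42.7% with the length and GC correction and 62.5% to 66.6% with limma on log2 FPKM values, where the median of all genes, 0.02, became up to 0.17. For S23DKO against S4KO the count of 1034 became 1592 without a filter, 2127 with DESeq2, 2400 with the length and GC correction (45.3% higher instead of 61.1%) and 393 with only the 4 libraries compared (72.8% higher), and 334 to 1607 without 1 library. At day 4 the count of 2842 became 4621 with the correction, and 868 to 3040 without 1 library.

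Of 182 named genes 126 were called, and 66 of these kept their call and direction under every alternative run. Leaving out 1 library lost 57, the correction 11, limma on log2(FPKM + 1) 9, the 4 libraries alone 9, DESeq2 1 and RLE 0. Dnmt3a, at 0.00, became -0.61 with the correction (adjusted p = 0.0135) and -0.61 with the correction and the replicate block (0.0203). The cause was not tested.

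Deviations of same-numbered replicates correlated with either sign (r = -0.06 between WT and S23DKO at day 0, 0.22 between S23DKO and S4KO at day 0, -0.23 between WT and S23DKO at day 4, and from -0.25 to 0.54 over all pairs of groups), so the numbers were not taken as a pairing. With the replicate block the counts were 5510 at day 0, 945 against S4KO and 2717 at day 4. With the block and the correction they were 5944, 2225 and 4370. Of the named genes 4 lost and 3 gained a call with the block. Crossing the replicate numbers at day 4, chosen after seeing the data, gave 2811. With 2 libraries a group, changes of 2-fold were mostly not called on simulated counts with 1 spread for all genes. In the data, 4449 of the 5799 genes called at day 0 had an absolute log2 fold change of at least 1. The others had smaller changes, so the simulation does not set the limit of the main comparison.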
